A study of Gallus gallus with 6 samples.

Results

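The regions described here are the largest increases of CG methylation that were found when lens fiber cells were compared with lens epithelial cells. Methylation was read by whole genome bisulfite sequencing, and the mCG level is the fraction of molecules that carry a methyl group on the cytosine of a CG dinucleotide (a cytosine with a guanine after it). Fiber cells (peripheral and central) and epithelial cells (central and equatorial) were microdissected from chick lenses (White Leghorn, embryonic day 13), with 25 lenses pooled per replicate and 3 replicates of each cell type. The comparison asked where in the genome mCG levels differ between these cell types. It gave 7621 distinct differentially methylated regions (DMRs), of which 6602 were higher in fiber cells (gains) and 1019 were lower (losses). Members were selected on the measured change itself, as DMRs whose fiber level was at least 35 percentage points above their epithelial level. This rule kept 408 of the 7621 DMRs, 5.35% of all, called large gains below.

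Methylation of CG sites is copied to the new strand when DNA replicates, and it can be added or removed as cells differentiate. In promoters and CpG islands, which are stretches rich in CG sites, it usually accompanies a silent gene, whereas in gene bodies and at distant regulatory elements its relation to transcription varies with the place and the gene. In the lens, epithelial cells at the equator leave the cell cycle and become fiber cells, which elongate, fill with crystallins and lose their organelles.

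The levels are the authors' means over the 3 replicates of a cell type, so no value per replicate, no SD and no sequencing depth stand behind them here. Expression of marker genes was not analysed here, so the labelled cell types were not checked against it. The authors' area statistic sums a Wald statistic over the sites of a DMR, and the change divided by this statistic per site serves as a rough standard error for 1 smoothed site. It lay between 2.77 and 5.69 points in the 408 large gains, with a median of 4.30 points. Since the members were chosen by their change, their levels and changes are a description. Regions are not replicates of a cell type, neighbouring ones are not independent, and no test was run on them. Shares are given with 95% Wilson intervals where these help to read them, and the intervals cover the counting of regions only.

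Letters of a few members can be shown from the study's table of predicted transcription factor binding sites, given in the galGal6 assembly. For gains, that table covers only regions of genes with lower expression in fiber cells, and only motifs that the study found enriched there. The part of that table used here lists 133 distinct sites in 48 large gains. Sites that overlap, or that match on both strands, were counted apart. Of these sites, 17 hold a CG, and they lie in 9 large gains. Within each of these 9 regions the sites with a CG share the same CG. One such site per region, the longest, is printed 5′ to 3′ with its CG in capitals. Levels were given as means over a whole region, so the level of the printed CG itself is not known.
EML4 (chr3:23804589-23804601, minus strand): ccaccaCGtgctc
PLXNB2 (chr1:20784261-20784273, minus strand): gccccaCGtgctc
MAML2 (chr1:186315252-186315262, minus strand): aagcaCGtggc
HES5 (chr21:1436747-1436756, plus strand): cacaCGtgaa
CADM1 (chr24:4790283-4790292, plus strand): atcaCGtgat
EPB41L4A (chrZ:46322686-46322695, minus strand): cacaCGtgcc
FGFR2 (chr6:31838113-31838121, plus strand): gccaCGtgt
EFNA5 (chrZ:48178141-48178154, plus strand): atgacaCGtcagta
CNTFR (chrZ:8268938-8268946, minus strand): ctgccCGca
In 7 of the 9 sites the CG stands in the middle of the letters CACGTG, which read the same on both strands and are known as an E-box, the core recognised by many basic helix-loop-helix proteins. These sites were chosen because they hold a CG, from a table of motif matches, so their letters follow in part from the motifs that were searched. A match shows letters and no binding, and the share of all DMRs that hold these letters was not analysed here. The region of EML4 that contains the printed site had an mCG level of 70.4% in fiber cells and 26.7% in epithelial cells. In the region of PLXNB2 the levels were 53.0% in fiber cells and 13.6% in epithelial cells, and in that of HES5 they were 55.9% and 20.1% in the same order.

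Most large gains had a level above 50% in fiber cells and a low or intermediate level in epithelial cells. The fiber level ranged between 41.2% and 85.1% with a median of 61.1%, and the epithelial level between 2.81% and 47.4% with a median of 22.0%. In fiber cells 368 of the 408 regions (90.2%) were at 50% or more, whereas in epithelial cells none of the 408 was. Regions close to either end of the scale were few, as 34 exceeded 75% in fiber cells and 31 were under 10% in epithelial cells. In 286 regions (70.1%) the epithelial level was from 10% to under 30%. The change had a median of 38.1 points and reached 53.1 points, and only 6 regions differed by 50 points or more.

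**Figure D1:**
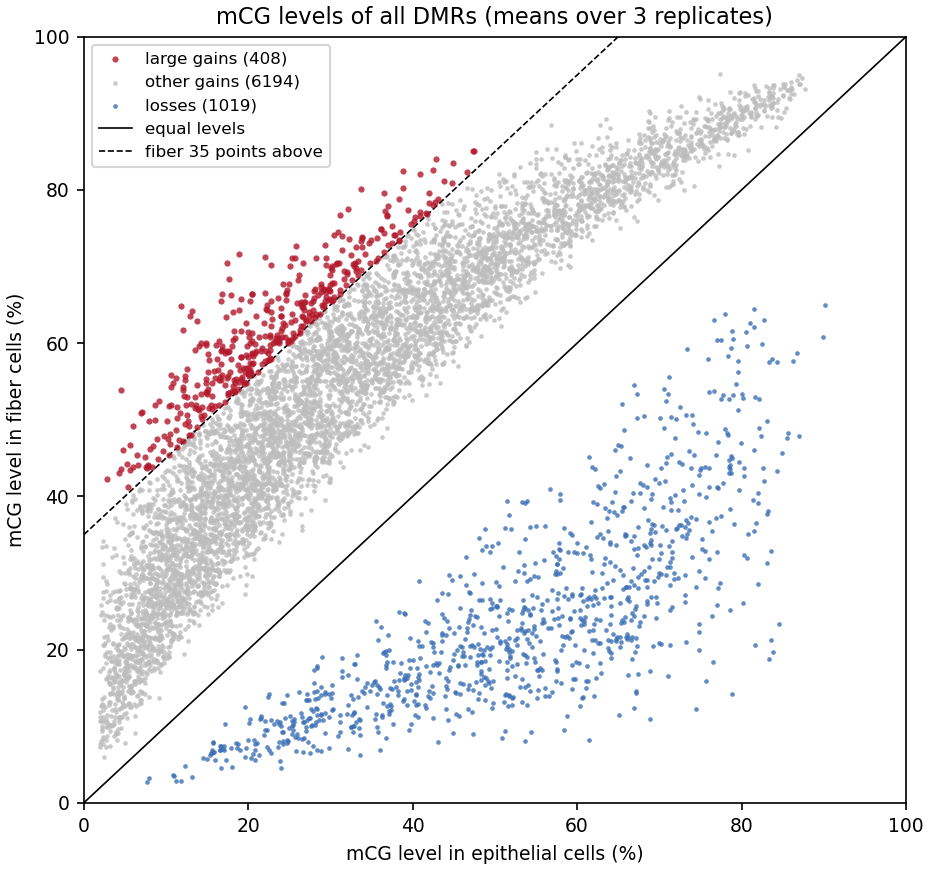
mCG level in fiber cells (vertical axis, %) against the level in epithelial cells (horizontal axis, %) for all 7621 DMRs, each point being 1 DMR and each level the authors' mean over 3 replicates. The 408 large gains (red) lie on or above the dashed line, 35 points over equality, and all of them have less than 50% in epithelial cells.

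The change was greatest in a region of 113 bp with 10 listed CG sites in an intron of TRIP4, a transcriptional coactivator, which the annotation also places in the promoter of ZNF609 (chr10:1648231-1648343). Its mCG level was 64.9% in fiber cells and 11.9% in epithelial cells, a change of 53.1 points. A region in the promoter of OLFM3, which encodes a secreted olfactomedin protein, followed with 70.4% in fiber cells and 17.4% in epithelial cells (chr8:11870568-11870671, 53.0 points). Both regions lie within 2 kb upstream of an annotated start of transcription. An intron of CHN1, a Rac GTPase-activating protein of axon guidance, had 71.7% in fiber cells and 18.9% in epithelial cells (52.8 points). An intron of CRACR2B, a regulator of calcium entry, had 64.3% in fiber cells and 13.2% in epithelial cells (51.1 points). ATP13A3, a P-type ATPase of polyamine transport, carried an intronic region that overlaps a repeat, with 68.3% in fiber cells and 17.6% in epithelial cells (50.7 points).

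Next came an intron of ENSGALG00000051384, a lncRNA gene without a symbol, with 63.5% in fiber cells and 12.9% in epithelial cells (50.6 points). Among genes with a symbol, TLE1, HMGA2, GHR, NAV2 and CDKAL1 followed. TLE1, a Groucho-type corepressor, had a region in an intron and exon with 61.7% in fiber cells and 12.1% in epithelial cells (chrZ:39212432-39212596). In an intron of HMGA2, which encodes an architectural chromatin protein of growing embryonic cells, the level was 66.4% in fiber cells and 16.8% in epithelial cells (chr1:34376647-34376816). The promoter region of GHR, the growth hormone receptor, had 53.9% in fiber cells and 4.5% in epithelial cells (chrZ:13427274-13427380). The GHR region thus had the lowest epithelial level of all large gains in genes with a symbol. An intron of NAV2, a neuron navigator protein, had 71.3% in fiber cells and 22.0% in epithelial cells. For an intron of CDKAL1, a tRNA-modifying enzyme, the levels were 62.9% in fiber cells and 13.8% in epithelial cells. The changes of the regions in these 5 genes were between 49.1 and 49.6 points.

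The remaining 10 of the 20 largest gains in genes with a symbol changed by 45.8 to 48.9 points. They lie in EFNA5, IGDCC3, ELP4, CNTN2, ITCH, IQCH, ADCY5, TSPAN4, TGFBR3 and CX3CR1. EFNA5 encodes ephrin-A5, a membrane-bound ligand of Eph receptors whose loss causes cataract in mice, and its region spans an exon and the 3′ UTR (chrZ:48334624-48335000). There the level was 65.5% in fiber cells and 16.7% in epithelial cells. ELP4 encodes a subunit of the elongator complex, and in mouse and human its introns hold distant enhancers of the neighbouring gene PAX6, a master regulator of eye development. Its region of 702 bp (chr5:5331580-5332281) had 72.6% in fiber cells and 25.8% in epithelial cells. The intronic region of TGFBR3, a coreceptor for transforming growth factor beta also called betaglycan, had 60.1% in fiber cells and 14.2% in epithelial cells (chr8:14816878-14817206).

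**Figure D2:**
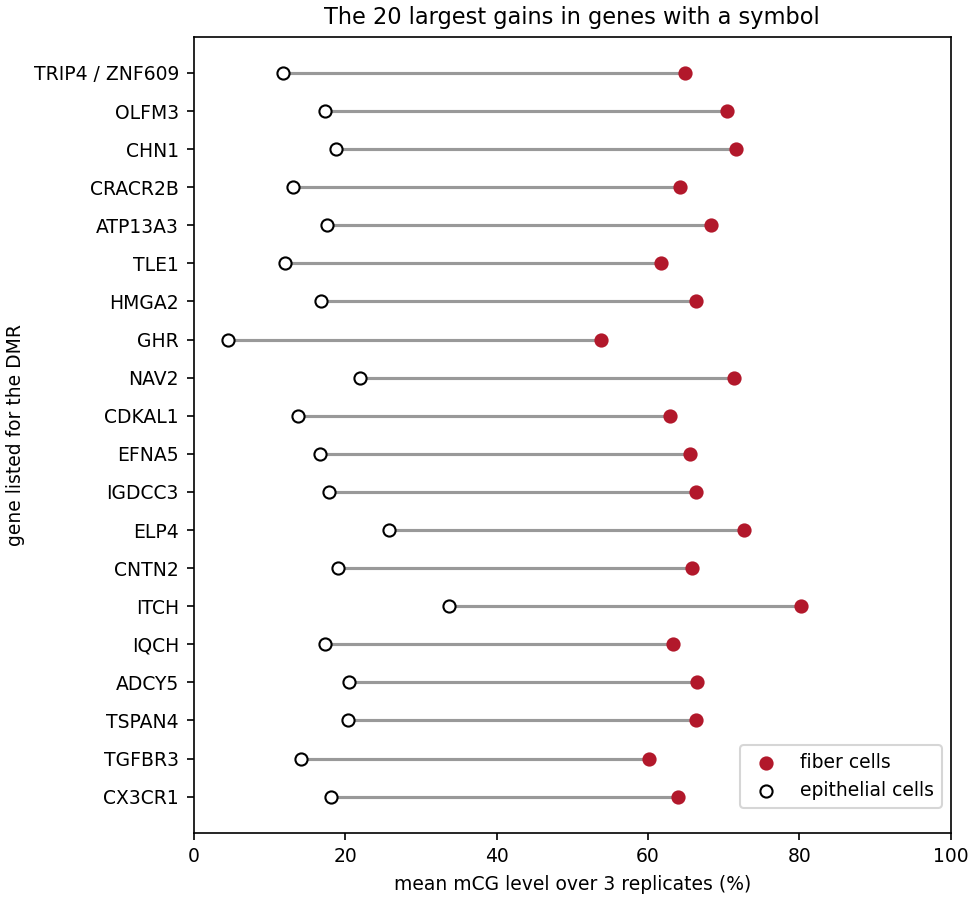
mCG level (horizontal axis, %, mean over 3 replicates) in fiber cells (filled) and epithelial cells (open) of the 20 large gains with the greatest change among those annotated to genes that have a symbol. Fiber levels lie between 53.9% (GHR) and 80.2% (ITCH), and the epithelial levels between 4.5% (GHR) and 33.8% (ITCH).

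Among genes with a symbol, the fiber level was highest in introns of ATP10B (85.1% in fiber cells, 47.4% in epithelial cells), RELN, PAPPA and AGBL1. RELN, which encodes the secreted guidance protein reelin, had 85.0% in fiber cells and 47.4% in epithelial cells. Apart from GHR, the epithelial level among these genes was lowest in WAPL, DLGAP1 and MORC2. WAPL, which releases cohesin from chromosomes, had 43.6% in fiber cells and 4.6% in epithelial cells. The distribution of changes had no gap at the threshold. Between 35 and 36 points there were 85 DMRs, and between 34 and 35 points there were 87. The members just inside were regions of CRADD (73.4% in fiber cells, 38.4% in epithelial cells), MAML2 (61.3% and 26.3%) and FARP1 (54.8% and 19.8%). Just outside were introns of 2 genes without a symbol (48.4% and 13.4%, 55.7% and 20.7%) and of DPYSL2 (47.7% in fiber cells, 12.7% in epithelial cells).

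Large gains lay mainly in introns and seldom in CpG islands. An intron was annotated for 360 of the 408 large gains (88.2%), against 74.3% of the 6194 other gains and 75.1% of the losses. An exon was annotated for 61 large gains (15.0%), against 27.7% of other gains, and a promoter for 26 (6.37%), against 14.1% of other gains. Only 3 large gains touched a CpG island (0.735%, interval 0.250% to 2.14%), against 860 other gains (13.9%). Island shores, the flanks of islands, held 30 large gains (7.35%), against 19.7% of other gains. Repeats were annotated for 42 large gains (10.3%, interval 7.71% to 13.6%) and for 6.57% of other gains (interval 5.98% to 7.22%). No gene was listed for 24 large gains (5.88%), against 9.11% of other gains. For 266 large gains (65.2%) an intron was the sole annotation among promoters, UTRs, exons, introns, islands, shores and repeats, against 42.2% of other gains.

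Losses of the same size also lay mainly in introns and seldom in CpG islands. Among the 293 DMRs that were at least 35 points lower in fiber cells (3.84% of all), 83.6% lay in introns, 8.87% in promoters, 0.341% in CpG islands and 8.53% in island shores. Exons were annotated for 20.5% of these large losses and repeats for 7.51%, against 15.0% and 10.3% of large gains. Over all 1019 losses, the shares were 13.7% for promoters and 10.5% for islands. Within the large gains themselves, levels were close to each other across annotations. Median levels in promoters were 60.1% in fiber cells and 20.3% in epithelial cells, in exons 59.7% and 20.1%, in introns 61.4% and 22.1%, and in repeats 63.6% and 24.1%.

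**Figure D3:**
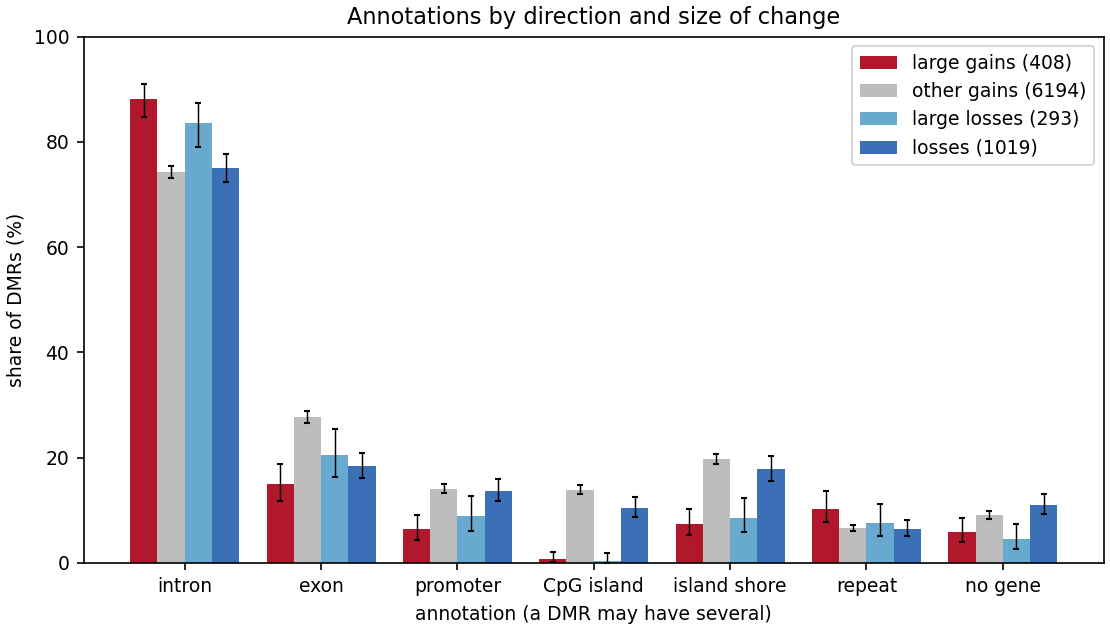
Share of DMRs (vertical axis, %) that carry each annotation (horizontal axis), for large gains, other gains, large losses and all losses, which include the large ones. Bars show shares and error bars 95% Wilson intervals. Islands hold 0.735% of large gains and 13.9% of other gains, and introns 88.2% and 74.3%.

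Large gains were poor in CG sites. They had a median of 14 listed sites, against 24 in other gains, although they were longer, with a median of 294.5 bp against 240 bp. This gives a median density of 5.28 listed sites per 100 bp in large gains and of 10.8 in other gains. The number of listed sites was even in 345 of the 408 large gains (84.6%). Whether a CG dinucleotide is listed once or on each strand is not stated, so numbers and densities of listed sites may exceed those of dinucleotides. The 1905 DMRs of lowest density, with at most 7.05 sites per 100 bp, held 291 of the 408 large gains (71.3%), whereas the 1906 of highest density, with at least 14.4, held 5. As a share of gains, large ones made up 18.0% at the lowest density, 4.94% and 1.90% in the groups between, and 0.298% at the highest density. The same order was seen for losses, of which 63.7% were large at the lowest density and 4.37% at the highest.

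**Figure D4:**
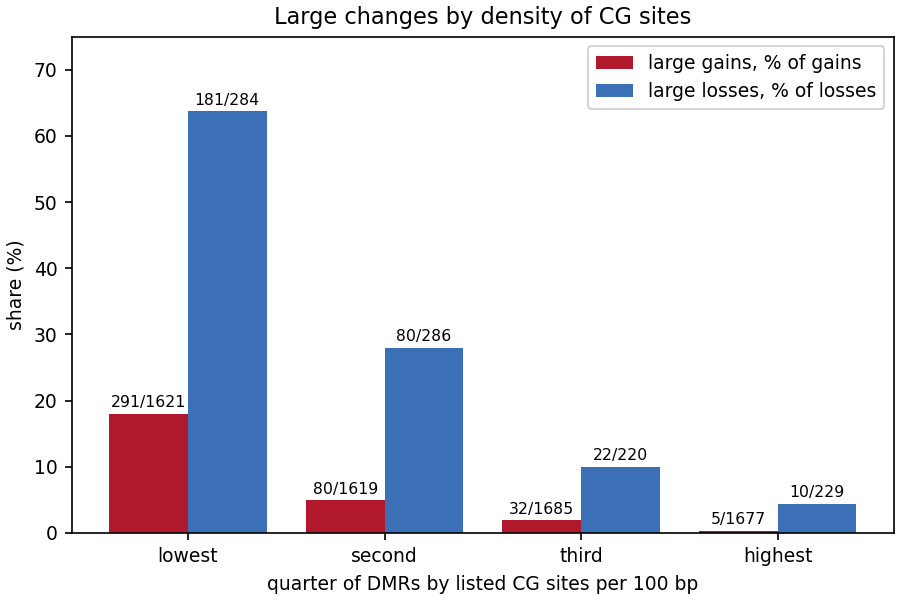
Share of gains that are large gains (left bars) and share of losses that are large losses (right bars), in %, in 4 groups of DMRs ordered by listed CG sites per 100 bp. Labels give the counts. The share of large gains is 18.0% in the group of lowest density and 0.298% in that of highest density.

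The number of listed sites moved with the change as well. No DMR in the table has an absolute area statistic under 92.6, a minimum that the study's methods do not state. At that value a region with 14 sites has a mean statistic of 6.62 per site, and one with 24 sites of 3.86. In gains with fewer than 16 listed sites, 215 of 557 (38.6%) were large gains, against 19 of 1375 (1.38%) with 36 sites or more. At like numbers of sites the share still differed with density. Among gains with 16 to 23 sites, 102 of 822 (12.4%) were large gains in the group of lowest density and 1 of 382 (0.262%) in that of highest density. With 36 sites or more, the counts were 10 of 125 and 2 of 620 (0.323%). Density also moved with the annotations. Within the group of lowest density, introns were annotated for 91.1% of 291 large gains and 88.4% of 1330 other gains, promoters for 6.19% and 7.59%, exons for 15.5% and 19.4%, and shores for 4.81% and 9.17%. Repeats were annotated for 32 of the 291 large gains and for 113 of the 1330 other gains (8.50%) there. The part of density in the annotation shares was not tested.

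In promoters, 26 large gains were found, 18 of them in the promoter of a gene with a symbol. After ZNF609, OLFM3 and GHR, the largest change was at ENO1, which encodes the glycolytic enzyme alpha-enolase. That region of 829 bp covers the promoter, the 5′ UTR, an exon and an intron (chr21:3230711-3231539) and had 51.0% in fiber cells and 7.1% in epithelial cells, a change of 43.9 points. The promoter of CYP27C1, a retinoid-modifying cytochrome P450, had 79.6% in fiber cells and 36.5% in epithelial cells. EML4, which encodes a microtubule-binding protein, had a promoter region with 65.0% in fiber cells and 22.2% in epithelial cells. At KANK1, a regulator of the actin cytoskeleton, the levels were 56.4% in fiber cells and 15.8% in epithelial cells, over 33 listed sites. KMT2C, a histone H3 lysine methyltransferase, had 60.0% in fiber cells and 20.2% in epithelial cells. TNFRSF1A, a receptor of tumor necrosis factor, had 59.0% in fiber cells and 21.0% in epithelial cells. DDR1, a collagen-binding receptor tyrosine kinase, had 60.8% in fiber cells and 24.1% in epithelial cells. The 12 promoter regions with the largest change in genes with a symbol also included promoters of microRNA genes inside other genes, gga-mir-1755 in EIF4E2 (58.7% in fiber cells, 20.4% in epithelial cells) and gga-mir-6570 in MAML2 (74.2% in fiber cells, 37.7% in epithelial cells). Reads of one region cannot be assigned to the microRNA gene or to its host, since the sequence belongs to both.

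Since the area statistic is a sum over sites, ranking by it favours regions with many sites. The members with the largest statistic were long and rich in sites, unlike most large gains. The first was a region of 2166 bp with 129 listed sites in STRA6, which encodes the cellular receptor for retinol-binding protein (chr10:3044325-3046490). It spans the 5′ UTR, an exon and an intron and had 62.0% in fiber cells and 24.1% in epithelial cells. The next was a region of 96 sites that touches a CpG island in an intron of cNFI-A, the chicken NFIA gene, with 56.2% in fiber cells and 19.6% in epithelial cells. CYR61, which encodes a secreted matricellular protein, had a region over exon, intron and 3′ UTR with 49.9% in fiber cells and 12.7% in epithelial cells. PCCA, CD81 and HES5 completed these 6. The region of HES5, a transcriptional target of Notch signalling, covers 1604 bp of its intron, exon, 3′ UTR and transcription end together with the promoter of PANK4, and holds 72 listed sites (chr21:1435712-1437315).

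Large gains were listed in the promoter or body of 349 genes, 8.98% of the 3888 genes with any DMR there. Of the 349 genes, 302 are protein-coding, 40 are lncRNA genes and 4 are miRNA genes, and 286 have a symbol. A single large gain was found in 313 genes, 2 or more in 36 and 3 or more in 8. For 137 genes the large gain was the only DMR. The other 212 genes had 844 further DMRs (each counted once per gene), of which 785 (93.0%) were gains and 59 were losses. Over all 7621 DMRs, 86.6% were gains, but that share also covers the large gains themselves, regions with no gene and regions of genes with losses alone. A loss was also held by 47 of the 349 genes (13.5%). Among all 3888 genes with a DMR, 786 held a loss (20.2%), but these include genes with losses alone, which the 349 cannot include. Any gain was held by 3419 of the 3888 genes. Every DMR is a gain or a loss, so these counts put the share of the 3419 with a loss too below 13.5%. The 20.2% therefore does not show that losses are rarer in genes with a large gain. Genes were not matched for their number of DMRs.

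MAML2, a Mastermind-type coactivator of Notch target genes, had the most large gains, with 5 among 21 DMRs. All 21 were higher in fiber cells, by 29.4 points on average. Its 5 large gains are intronic and lie between 186281256 and 186379814 on chromosome 1, with fiber levels of 58.8% to 74.2% and epithelial levels of 17.1% to 37.7%. Of the 7 genes with 3 large gains, EFNA5 had the greatest sum. Its other large gains are intronic, with 65.6% in fiber cells and 22.8% in epithelial cells, and with 64.4% and 26.7%. All 5 of its DMRs were gains, by 37.6 points on average. EML4 held 3 large gains among 8 DMRs, all 8 higher in fiber cells, and beside the promoter its introns had 70.4% in fiber cells and 26.7% in epithelial cells, and 70.4% and 30.8%.

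PMEPA1, an inhibitor of transforming growth factor beta signalling, had 3 large gains among 10 DMRs, and BOC, a coreceptor for Hedgehog ligands, 3 among 11. In both genes every DMR was a gain. The tetraspanin gene CD81 had 3 among 14 DMRs and TRPM1, a cation channel known from retinal bipolar cells and melanocytes, 3 among 6, again with no loss. The transcription factor gene cNFI-A had 3 among 34 DMRs, 3 of which were losses, and its mean change was 19.4 points, the lowest of these 8 genes. ATP13A3, ELP4, PAPPA and TNIK had 2 large gains each, among 2, 17, 8 and 8 DMRs, all of them gains. PAPPA encodes a protease that cleaves binding proteins of insulin-like growth factors, and one of its regions, with 48 sites, had 67.7% in fiber cells and 24.2% in epithelial cells. TNIK encodes a kinase that acts with TCF factors in Wnt signalling.

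**Figure D5:**
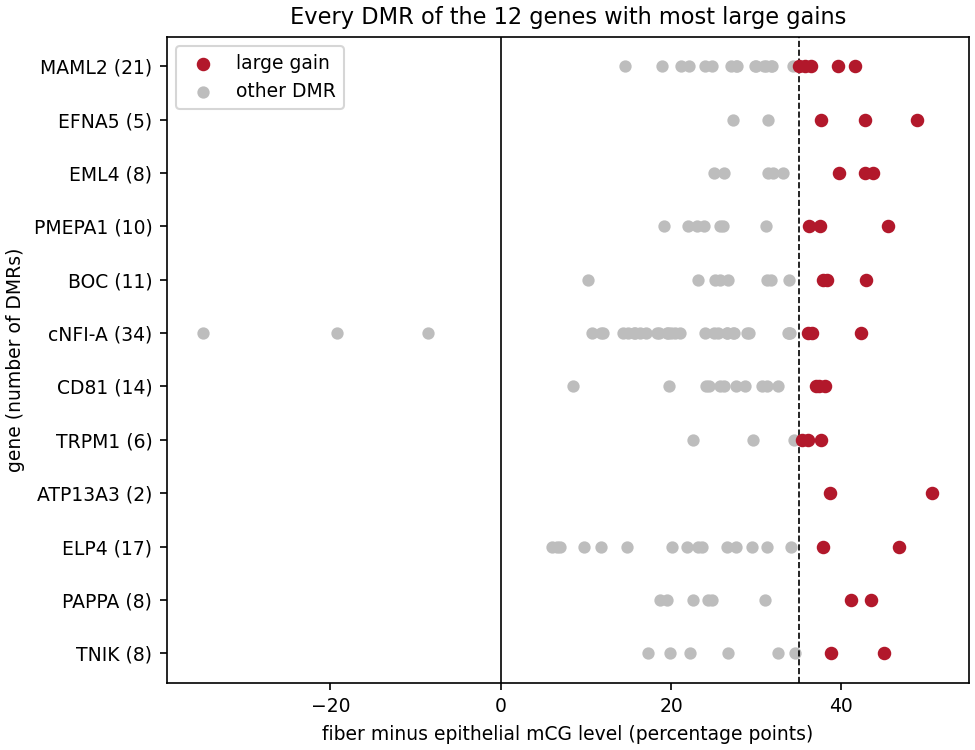
Change in mCG level (horizontal axis, fiber minus epithelial, percentage points) of every DMR in the 12 genes with most large gains, each point being 1 DMR. Large gains (red) lie at or beyond the dashed line at 35 points. In 11 of these genes all DMRs lie right of 0, and in cNFI-A 3 of 34 lie left of it.

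Most large gains stood alone along the chromosome. With a gap under 10 kb as the limit, 40 of the 408 (9.80%) had another large gain nearby, in 18 clusters, of which 4 held 3 regions. Large losses also stood mostly alone, as 20 of 293 (6.83%) had another large loss within that distance. The cluster of PMEPA1 (chr20:11524340-11529608) spans 5269 bp of exons, introns and 3′ UTR. Its 3 large gains had 74.1%, 71.1% and 48.7% in fiber cells and 37.9%, 25.7% and 11.2% in epithelial cells. The cluster of BOC (chr1:84437139-84441590) is intronic, with 66.7%, 73.1% and 62.7% in fiber cells and 28.8%, 34.7% and 19.8% in epithelial cells, and no other DMR lies within it. CD81 (chr5:13832941-13842155) had 3 large gains among 8 DMRs in 9215 bp. TRPM1 (chr10:6134418-6144012) had 3 among 4 in 9595 bp, the first over its promoter, 5′ UTR, exon and intron with 43.9% in fiber cells and 7.9% in epithelial cells. Pairs in ATP13A3 (chr9:13021520-13023060) and TNIK (chr9:19771209-19773512) had the greatest summed change of the 14 pairs. The pair of TNIK had 55.2% and 59.8% in fiber cells and 16.5% and 14.8% in epithelial cells.

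When DMRs of any size are taken as neighbours, 173 large gains (42.4%) had another DMR within 10 kb. This nearest DMR was a gain for 165 of them (95.4%) and a loss for 8, and for other gains it was a gain in 93.7% of cases. Its median change was 26.0 points, against 19.7 points for the nearest neighbours of other gains, 59.6% of which had a DMR within 10 kb. The distance to the nearest DMR was larger for large gains, with a median of 18.0 kb, than for other gains, with 5.83 kb.

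Among genes of 12 lists for lens biology, signalling, adhesion and gene regulation, 58 of the 363 genes with a DMR had a large gain, against 286 (9.72%) of all 2942 genes with a symbol and a DMR. Genes on the lists had more DMRs each, between 2.14 and 4.79 per list, than genes with a symbol in general, with 2.08. Counted by DMRs, large gains made up between 2.06% and 12.1% of the DMRs of a list, and 5.40% for all genes with a symbol. The lists were drawn up with earlier results of these data known, and nothing is read from them beyond these counts.

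Receptor tyrosine kinase and fibroblast growth factor (FGF) genes had a large gain in 9 of 28 genes (32.1%), as 11 of 91 DMRs (12.1%). The ephrin gene EFNA5 held 3 of these 11. The shares for all genes with a symbol were 9.72% and 5.40%. The count of 9 genes depended on the cutoff. It was 15 with a threshold of 30 points and 1 with 40 points. It was 3 when the area statistic had to reach the median of all DMRs. The share for all genes with a symbol was not analysed at these settings. FGF signals from the vitreous body drive fiber differentiation in vertebrate lenses. The FGF receptor genes FGFR2 (56.1% in fiber cells, 20.3% in epithelial cells) and FGFR3 (49.0% and 13.7%) both had a large gain over an exon and intron. These changes were close to the threshold, at 35.8 and 35.3 points, and all 4 and 10 DMRs of these genes were gains. FGFR1 had no large gain, its 7 DMRs being gains of at most 20.4 points. FGFRL1 had 1 gain, of 30.3 points, and 1 loss. MET, the receptor of hepatocyte growth factor, had 75.3% in fiber cells and 37.5% in epithelial cells in its only DMR. ERBB4, a neuregulin receptor, had 77.4% in fiber cells and 39.4% in epithelial cells, and the adaptor gene GAB2 had 58.1% and 19.9%. EPHB2, a receptor of ephrin-B ligands, had 63.4% in fiber cells and 28.1% in epithelial cells at an island shore.

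In the Notch list 3 of 14 genes (21.4%) had a large gain, MAML2, MAML3 and HES5, as 7 of 62 DMRs (11.3%). MAML2 held 5 of these 7. The shares for all genes with a symbol were 9.72% and 5.40%. MAML3, like MAML2 a Mastermind coactivator, had 55.4% in fiber cells and 18.5% in epithelial cells in an intron. The ligand gene JAG1 and the coactivator gene MAML1, whose entry is annotated as a pseudogene, had a loss as their only DMR, of -41.8 and -38.4 points. NRARP also had a loss as its only DMR, of -14.8 points, and NOTCH1 had 1 loss among 8 DMRs. Of 14 genes of the transforming growth factor beta and bone morphogenetic protein list, TGFBR3 and TGFB2 had large gains, as 3 of 44 DMRs (6.82%). TGFB2 encodes a ligand of this family, and 2 of its 10 DMRs, all gains, passed 35 points. They had 58.3% and 45.1% in fiber cells and 20.6% and 7.5% in epithelial cells. In the Hedgehog list BOC alone had large gains among 8 genes, as 3 of 30 DMRs (10.0%). In the Wnt list 2 of 22 genes had a large gain, as 3 of 68 DMRs (4.41%). LGR5, a receptor of R-spondins and a marker of several epithelial stem cells, had 82.1% and 78.9% in fiber cells and 40.9% and 38.3% in epithelial cells in its only DMRs. TCF7, a transcription factor of this pathway, had 63.1% in fiber cells and 25.7% in epithelial cells.

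Genes of cadherins, junctions and guidance receptors had a large gain in 11 of 46 cases (23.9%), as 12 of 163 DMRs (7.36%). The shares for all genes with a symbol were 9.72% and 5.40%. DMRs per gene were 3.54 on this list and 2.08 for all genes with a symbol. OPCML, a neural cell adhesion protein, had 70.0% in fiber cells and 25.1% in epithelial cells, and MAGI1, a scaffold of tight junctions, had 49.3% and 6.0%. The guidance ligand genes SLIT2 (53.4% in fiber cells, 14.2% in epithelial cells) and SLIT3 (47.9% and 9.8%) were both members, as was the semaphorin receptor gene PLXNB2. Extracellular matrix genes had a large gain in 5 of 29 cases (17.2%), as 6 of 62 DMRs (9.68%). LAMA3, a laminin chain of epithelial basement membranes, had 2 regions within 2592 bp with 46.7% and 43.7% in fiber cells and 5.6% and 7.6% in epithelial cells. COL18A1, a basement membrane collagen that is also found in the lens capsule, had 43.9% in fiber cells and 7.6% in epithelial cells. The annotation lists this COL18A1 entry as a pseudogene.

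Of the cytoskeleton list, 8 of 42 genes (19.0%) were members, as 8 of 161 DMRs (4.97%). The shares for all genes with a symbol were 9.72% and 5.40%. After NAV2 the largest changes were in the actin-binding gene ABLIM1 (74.5% in fiber cells, 31.0% in epithelial cells), in MACF1, which links actin to microtubules (41.4 points higher in fiber cells), and in the formin gene FMN2 (63.1% and 22.9%). MACF1 had 34 DMRs, all gains, of which 1 was a large gain. Channel and transporter genes had a large gain in 7 of 42 cases (16.7%), as 9 of 118 DMRs (7.63%). The amino acid transporter gene SLC7A5 had 54.8% in fiber cells and 10.8% in epithelial cells. SLC4A11, a membrane transporter known from the corneal endothelium, had 58.9% in fiber cells and 17.6% in epithelial cells, and SLC6A6, which carries taurine, had 56.5% and 19.0%.

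Developmental transcription factors had a large gain in 5 of 71 genes (7.04%) and in 7 of 340 DMRs (2.06%). For all genes with a symbol these shares were 9.72% and 5.40%. The list had 4.79 DMRs per gene, against 2.08 for all genes with a symbol. PAX2, an eye and kidney regulator, had 74.2% in fiber cells and 30.4% in epithelial cells over 85 bp of an intron (chr6:17963069-17963153). MEIS2 had 53.0% in fiber cells and 12.2% in epithelial cells. FOXP1 had 1 large gain among 49 DMRs, all 49 of them gains. The other members of this list were cNFI-A and MAF, which is also on the lens list. Chromatin genes had a large gain in 5 of 148 DMRs (3.38%), with 4.48 DMRs per gene, and in 4 of 33 genes (12.1%). Next to HMGA2 and KMT2C these were MBD3, a subunit of the NuRD complex (58.6% in fiber cells, 15.1% in epithelial cells), and the histone deacetylase gene HDAC4, with 69.8% and 55.9% in fiber cells and 30.1% and 16.8% in epithelial cells.

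Among the lens genes themselves, 2 of 23 with a DMR had a large gain (8.70%, against 9.72% of all genes with a symbol and a DMR). VEGFA, an angiogenic growth factor, had 63.8% in fiber cells and 25.3% in epithelial cells in a region over exon and intron. MAF, a transcription factor required for fiber cell elongation in mouse, had 43.9% in fiber cells and 6.0% in epithelial cells in a region that overlaps a repeat (chr11:14581094-14581385). None of the 9 crystallin genes on the list with a DMR had a large gain, a number of genes too small to set against the 9.72%. CRYAA, CRYAB, CRYBA1, CRYBA2, CRYBB2 and CRYBB3 had gains alone, of which the largest was 33.8 points in CRYAB, the alpha B-crystallin gene. CRYBB1 and CRYBA4 shared a single DMR, a loss of -38.4 points, and CRYGN had a loss of -14.3 points. In PAX6 the largest of 5 gains was 27.7 points. The beaded filament genes BFSP1 and BFSP2 and the transcription factor genes HSF4, SOX1 and SOX2 had losses alone.

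Large gains were spread over 28 of the 34 chromosomes with a DMR. Their share of a chromosome's DMRs was highest on Z, with 17 of 170 (10.0%, interval 6.34% to 15.4%), followed by chromosomes 7 (9.87%), 2 (9.73%) and 1 (8.07%). On chromosomes 27, 22 and 25 it was 0.685%, 0.952% and 1.14%, with 1 large gain each. The 6 chromosomes without a large gain (16, 30, 31, 32, 33 and W) had 238 DMRs together. Over the large chromosomes 1 to 5 and Z, 190 of 2540 DMRs (7.48%) were large gains, over chromosomes 6 to 10, 99 of 1411 (7.02%), and over chromosomes 11 to 33, 119 of 3654 (3.26%). The median density of DMRs was 8.64, 9.89 and 11.5 CG sites per 100 bp in these groups. Within the group of lowest density the shares were 16.5% (interval 14.2% to 19.0%) on the large chromosomes, 18.3% (14.7% to 22.6%) on chromosomes 6 to 10 and 11.8% (9.49% to 14.5%) on chromosomes 11 to 33.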

How the data were processed

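Bisulfite reads were base-called with CASAVA, trimmed with Trimmomatic and aligned to galGal6 with Bismark, per the labels and the study's methods. The authors called DMRs with DSS (smoothing over 200 bp, p threshold of 1e-05, at least 50 bp and 3 CG sites, merging within 100 bp). Versions were not given in the sources used here. For each DMR the authors deposited the mean mCG level of each cell type as a fraction, pooled over 3 replicates, and an area statistic, a score summed over sites. Smoothing makes neighbouring sites alike, and averaging hides differences within a DMR. The authors' column of differences was not used.

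The table of 13180 lines was joined to 7621 DMRs with Python 3.11.15 and pandas 2.3.3. Levels were turned into percent, and each change is the fiber level minus the epithelial level in percentage points. Each annotation and gene is the authors'. Promoters reach 2 kb upstream of a start of transcription. Regions less than 10 kb apart formed a cluster. Functions were tested on simulated data.

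Named genes followed a written rule (the 20 largest changes, the 12 largest in promoters, 12 genes and 6 clusters with most large gains, the 6 largest area statistics, the extremes of level, and examples from 12 gene lists). JAG1, MAML1, NRARP, NOTCH1, FGFR1, FGFRL1, ENSGALG00000051384 and the lens genes without a large gain were named after their values were seen. The members, lists and rule were chosen with earlier results of these data known. Binding site sequences came from a shortened supplementary table, of which only letters and positions were used. Alternatives tried were thresholds of 30 and 40 points, minimum sites, length and area statistic, thinning to 1 DMR per 1 kb, other cluster distances and exclusive annotation classes.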

Additional observations from a re-analysis of the deposited data

How the results depend on the processing

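Of 91 recomputed values of the counts, shares and medians over large gains, 67 stayed within their interval or within 1.5 times their count and 24 did not. The number of large gains was 1026 with a threshold of 30 points, 122 with 40 points and 164 when the area statistic had to reach the median of all DMRs. With these settings, 135, 4 and 11 genes had at least 2 large gains, and 19.1%, 0% and 6.10% of large gains had another within 10 kb. That share was 6.75% with 1 DMR per 1 kb cluster, 1.47% with a distance of 1 kb and 22.8% with 100 kb. With 30 points, median levels were 59.6% in fiber cells and 23.8% in epithelial cells and the median density was 5.76 sites per 100 bp. With 40 points, median levels were 63.2% in fiber cells and 18.2% in epithelial cells, the median length was 268 bp, no region touched a CpG island (0%) and 3.28% had no gene. Regions that reached this median had a median length of 333 bp, a density of 6.48 sites per 100 bp and a share in island shores of 10.4%. The intron share was 74.0% when each region was given 1 class, promoters and exons first. Counts of list genes moved by over 1.5 times in 25 of 72 cases, all under the thresholds of 30 and 40 points or the area minimum. The higher threshold and the area minimum keep fewer regions by construction.

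No paired analysis was possible because the result comes from no test and only means over replicates were used. For the same reason no replicate was left out, and the table gives no coverage behind a level.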

Other observations

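In 21 of the 349 genes with a large gain, a DMR at least 35 points lower in fiber cells was listed too, so that both directions occurred within a single gene. These genes include entries that list the same regions. Such large losses made up 3.84% of all 7621 DMRs. The share of all genes with a DMR that hold one was not analysed here, and genes were not matched for their number of DMRs. MAF had, beside its large gain, an intronic region with 28.4% in fiber cells and 71.2% in epithelial cells (chr11:14668406-14668679). PAX2 had a second intronic region with 29.9% in fiber cells and 67.7% in epithelial cells (chr6:17991552-17991726). In NAV2 the region of loss had 21.4% in fiber cells and 66.1% in epithelial cells. HDAC4 had a region of loss with 30.8% in fiber cells and 71.0% in epithelial cells. LSAMP, a neural cell adhesion gene, had 4 large losses and 1 large gain, the gain having 75.5% in fiber cells and 39.8% in epithelial cells. SEMA5B, a semaphorin gene, had a region of loss with 15.9% in fiber cells and 75.7% in epithelial cells, and a large gain with 51.8% and 15.9%.

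A few opposite changes lay close together. The nearest DMR within 10 kb was a loss for 8 of 173 large gains, against 234 of 3689 other gains. In CADM1 a loss of -32.6 points lay 1632 bp from a large gain, and in ST3GAL3, a sialyltransferase gene, a loss of -49.1 points lay 2040 bp from one. In RBFOX1, a splicing factor gene, the distance was 2491 bp and the loss -40.8 points. These genes were singled out after their values were seen.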
